A study of Mus musculus with 6 samples.

Results

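A set of 10 genes of fibroblast growth factor (FGF) and ERK signalling was examined in mouse embryonic stem cells. They are the ligand gene Fgf4, the receptor genes Fgfr1 and Fgfr2, the feedback phosphatase genes Dusp4 and Dusp6, the Sprouty genes Spry2 and Spry4, the ETS factor genes Etv4 and Etv5, and the immediate early gene Egr1. They were chosen by gene name. The 10 genes and the pathway lists below were chosen with earlier results of these data known. Their shares of called genes, set beside those of all genes, therefore describe these sets and are not a blind test. All 10 had a row among the 17110 genes of the authors' deposited table and, by gene ID, a row in the deposited count table. The cells, of the line called TG2A in the labels, held a DsRed2 reporter under the control of MERVL, a retroviral repeat that is transcribed in the early cleavage embryo and in rare cells of stem cell cultures. All samples grew in serum with leukemia inhibitory factor (15% fetal bovine serum and 25 ng/mL mLIF), and cells were sorted by flow cytometry into MERVL::DsRed2+ and MERVL::DsRed2- groups of 3 samples each, collected on separate dates. The labels give both groups the same line, reporter genotype and medium. The labels do not say whether the reporter line is a single clone.

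The data shown are 1 log2 fold change per gene with its standard error (SE), from the authors' own comparison. The table names neither the groups it compares nor the numerator, so "positive" and "negative" below are signs as deposited and cannot be read as higher in one named group. The comparison was taken to be that of the sorted groups, since the labels list no others, and nothing in the table states it. Values per sample are not shown, since the names of the 6 count columns match no sample, and depth per library is unknown here. A gene was called at an adjusted p-value under 0.05, which 30.5% of all genes of the authors' deposited table reached, 14.6% on the positive side and 15.9% on the negative side. The embryonic stem cell identity in the labels was matched by high mean counts of its markers per the authors' deposited table, with Pou5f1 at a mean normalized count of 32810 and Sox2 at 10086. None of the 8 markers listed for two-cell-like cells had a row, so these are not analysed here.

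FGF4 made by mouse embryonic stem cells themselves binds FGF receptors together with heparan sulfate and activates the RAS, RAF, MEK and ERK kinase cascade. ERK activity moves these cells out of naive pluripotency and, in the blastocyst, directs inner cell mass cells toward primitive endoderm. Active ERK also switches on genes whose products restrain the pathway, among them DUSP phosphatases and Sprouty proteins, so the transcripts of these feedback genes and of ETV4 and ETV5 are widely used as readouts of signalling.

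The 10 genes did not move in one direction. By the authors' deposited table, 2 of the 10 were called positive (Fgf4 and Etv5), 5 were called negative (Dusp4, Egr1, Dusp6, Fgfr2 and Fgfr1) and 3 were not called (Spry2, Spry4 and Etv4). That is 7 of 10 called, against 30.5% of all genes. Of the 7938 genes whose mean count reached 500, a floor that all 10 genes exceed, 32.1% were called. By direction, 17.5% of these were positive and 14.6% negative, beside 20% and 50% of the 10 genes. The positive share of the 10 thus lies near that of genes above the floor. The log2 fold changes ran from -2.98 for Dusp4 to 1.04 for Fgf4 around a median of -0.26 per the authors' deposited table, where the median of all genes was 0.01. The authors' own limit, which also asks for an absolute log2 fold change over 0.5 and takes in 21.5% of all genes, keeps 5 of the 10 per the authors' deposited table, 1 up and 4 down, and leaves out Fgfr1 and Etv5.

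**Figure D1:**
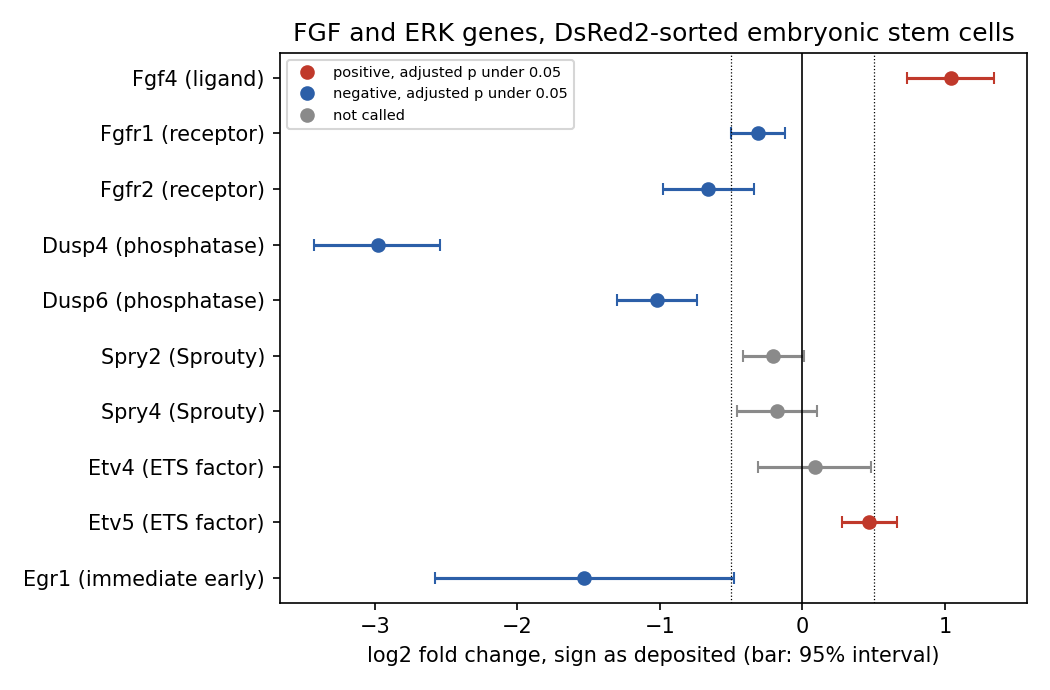
Log2 fold change of each of the 10 genes (x axis, sign as deposited), with bars for the 95% interval computed as 1.96 standard errors to each side; rows are genes with their role, and dotted lines mark the authors' limit of 0.5. Dusp4 lies far to the negative side at -2.98, Fgf4 alone lies beyond 1 on the positive side, and the intervals of Spry2, Spry4 and Etv4 include 0.

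Fgf4, the main FGF ligand of mouse embryonic stem cells, was the most positive of the 10. Its mean normalized count was 3374 and its log2 fold change 1.04 ± 0.15 (SE) per the authors' deposited table (adjusted p-value 3.52e-10). This is a 2.05-fold difference with a 95% interval of 1.66 to 2.53, and by the size of the Wald statistic Fgf4 stood at rank 816 of 17110 genes per the authors' deposited table. A downstream enhancer bound by SOX2 and POU5F1 is the textbook control element of Fgf4. The genes of those factors were at log2 fold changes of 0.14 (SE 0.14, adjusted p-value 0.491) for Sox2 and 0.26 (SE 0.10, adjusted p-value 0.0364) for Pou5f1 per the authors' deposited table.

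The 250 bases before the Fgf4 start are shown because this gene gave the largest positive value, with an alternating TATATATA stretch in capitals. They lie at chr7:144861136-144861385 on the plus strand of GRCm38.p6 and come from RefSeq.
Fgf4: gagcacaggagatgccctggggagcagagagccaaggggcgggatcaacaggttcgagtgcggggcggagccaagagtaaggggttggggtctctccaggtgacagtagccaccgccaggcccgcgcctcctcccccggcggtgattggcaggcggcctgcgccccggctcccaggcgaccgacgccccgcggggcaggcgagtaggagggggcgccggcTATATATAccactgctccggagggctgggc
The first base of the stretch lies 30 bases before the start. The letters TATATA, searched on both strands, occur in 5.25% of the 32851 RefSeq windows of this length, and the window is 71.2% G or C, against a median of 52.4%. Of the 11507 compared genes with a window, 2.69% hold these letters.

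The other FGF ligands spread widely in both directions. Of 22 ligand genes listed, 15 had a row, and per the authors' deposited table the positive calls numbered 3, the negative calls 3 and the others 9. These are 20% each way, near the 14.6% and 15.9% of all genes. Besides Fgf4, the positive ones were Fgf17, at 0.63 ± 0.18 (SE), and Fgf10, at 1.50 ± 0.58 (SE) on a mean count of only 23.2 per the authors' deposited table. Fgf10 was no longer called at an adjusted p-value of 0.01. On the negative side stood Fgf5, a marker of the formative and primed epiblast, at -7.17 ± 0.53 (SE) per the authors' deposited table. Fgf8, a ligand of the primitive streak, was at -5.54 (SE 0.60), and Fgf13, whose product is an intracellular FGF homologue that does not signal through the receptors, was at -2.56 (SE 0.22) per the authors' deposited table. Fgf5 and Fgf8 had mean counts of 246 and 114 over all libraries. Their differences of 144-fold and 46.5-fold leave few counts on the lower side, so the sizes are uncertain. Fgf4 and Fgf5 thus lay on opposite sides, with adjusted p-values of 3.52e-10 and 6.61e-40 per the authors' deposited table. Per kilobase of exon, Fgf4 had a mean normalized count of 1056 and Fgf5 one of 98.5, over all libraries and not per group.

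Both receptor genes among the 10 were called negative, and both by small amounts. Fgfr1, which encodes the main FGF receptor of naive stem cells, had a mean normalized count of 2619 and a log2 fold change of -0.31 ± 0.098 (SE) per the authors' deposited table (adjusted p-value 0.00714). Fgfr2, whose product is prominent in primitive endoderm and trophectoderm, had a mean normalized count of 522 and a log2 fold change of -0.66 ± 0.16 (SE) per the authors' deposited table (adjusted p-value 0.000343). In linear terms these are differences of 1.24-fold (95% interval 1.09 to 1.42) and 1.58-fold (1.27 to 1.97), both toward the negative side. The intervals, -0.50 to -0.12 for Fgfr1 and -0.98 to -0.34 for Fgfr2 on the log2 scale, overlap, and the difference between the receptors was not tested. The level of Fgfr1 per kilobase of exon was 265 and that of Fgfr2 was 50.5, in mean normalized counts, so Fgfr1 was the more abundant receptor transcript over these libraries.

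The other kinase receptor genes, Fgfr3 and Fgfr4, had low mean counts. Fgfr3 had a mean count of 50.2 and a log2 fold change of -1.98 ± 0.40 (SE) per the authors' deposited table (adjusted p-value 6.22e-06). Fgfr4 had a mean count of 27.8, and its log2 fold change of 0.45 ± 0.51 (SE) per the authors' deposited table was not called (adjusted p-value 0.57). Fgfrl1, which encodes an FGF receptor without a kinase domain, had a mean count of 245, or 88.1 per kilobase of exon, and was called negative at -0.44 ± 0.16 (SE) per the authors' deposited table (adjusted p-value 0.0288). Over the list of receptors, co-receptors and heparan sulfate enzymes, 13 of 20 genes with a row were called negative and 0 positive per the authors' deposited table, beside 15.9% and 14.6% of all genes, and the median log2 fold change was -0.60. The negative calls included all 8 listed core proteins that carry heparan sulfate, the syndecans Sdc1, Sdc2, Sdc3 and Sdc4 and the glypicans Gpc1, Gpc3, Gpc4 and Gpc6, from -2.47 ± 0.51 (SE) for Gpc6 to -0.39 ± 0.15 (SE) for Gpc3 per the authors' deposited table. Of the heparan sulfate enzyme genes, Ndst2 was called negative at -0.53 ± 0.19 (SE) per the authors' deposited table (adjusted p-value 0.0188). The others with a row, Hs2st1 at -0.19, Ext2 at -0.09, Ndst1 at -0.07, Ext1 at -0.01 and Hs6st1 at 0.12, were not called per the authors' deposited table, with SEs of 0.11 to 0.15.

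Between receptor and nucleus, calls of the cascade genes fell on both sides. All 25 cascade genes listed had a row, and per the authors' deposited table the positive calls numbered 4, the negative calls 7 and the others 14 (16% positive and 28% negative, beside 14.6% and 15.9% of all genes), and the median log2 fold change was -0.03. Map2k1, encoding the kinase MEK1, was not called, at -0.13 (SE 0.11) per the authors' deposited table. Mapk3, encoding ERK1, was called at 0.41 (SE 0.094), while Map2k2, encoding MEK2, stood at 0.21 (SE 0.087) with an adjusted p-value of 0.0546 per the authors' deposited table, and was called once the adjustment was recomputed with a mean count floor of 50. The positive calls were Gab1, an adaptor, at 0.59, Rps6ka1, an ERK-activated kinase, at 0.43, Mapk3 at 0.41 and Grb2, the adaptor that brings SOS to the receptor complex, at 0.38 per the authors' deposited table. The most negative calls were the adaptor Gab2 at -3.69 (SE 0.63, mean count 30.1) and the exchange factor Sos2 at -1.17 (SE 0.17) per the authors' deposited table. Gab1 and Gab2, which are paralogs, were thus called on opposite sides, and Sos1, the paralog of Sos2, was not called at 0.10 (SE 0.11) per the authors' deposited table. Gab1 was by far the more abundant of its pair, at a mean normalized count per kilobase of exon of 2401 against 4.89 for Gab2.

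Dusp4 and Dusp6, the feedback phosphatases, were called on the negative side and differed in size. Dusp4, a nuclear phosphatase induced by ERK, had a mean normalized count of 739 and a log2 fold change of -2.98 ± 0.22 (SE) per the authors' deposited table (adjusted p-value 7.33e-38). That is a 7.91-fold difference (95% interval 5.83 to 10.7), at rank 84 of all 17110 genes by the size of the Wald statistic per the authors' deposited table, and the largest of the 10 genes. Dusp6, a cytoplasmic phosphatase specific for ERK, had a mean normalized count of 1928 and a log2 fold change of -1.02 ± 0.14 (SE) per the authors' deposited table (adjusted p-value 4.14e-11). Its linear difference was 2.03-fold (95% interval 1.66 to 2.47). The 95% intervals of the pair, -3.43 to -2.54 for Dusp4 and -1.30 to -0.74 for Dusp6, do not overlap, although a test of their difference needs a covariance that the table does not give.

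The Dusp6 window is shown as that of a negative feedback gene and the Etv5 window as that of a positive ETS gene. Capitals mark TGAATG, in either orientation, the core of the sites at which Capicua (CIC), a repressor that ERK inactivates, binds. Both are the 250 bases before a RefSeq start in GRCm38.p6, at chr10:99262981-99263230 on the plus strand for Dusp6 and chr16:22438369-22438618 on the minus strand for Etv5.
Dusp6: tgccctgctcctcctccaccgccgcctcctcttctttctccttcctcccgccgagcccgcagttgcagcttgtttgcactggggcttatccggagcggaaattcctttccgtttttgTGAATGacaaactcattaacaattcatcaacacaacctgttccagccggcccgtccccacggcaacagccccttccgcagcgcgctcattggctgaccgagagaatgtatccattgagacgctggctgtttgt
Etv5: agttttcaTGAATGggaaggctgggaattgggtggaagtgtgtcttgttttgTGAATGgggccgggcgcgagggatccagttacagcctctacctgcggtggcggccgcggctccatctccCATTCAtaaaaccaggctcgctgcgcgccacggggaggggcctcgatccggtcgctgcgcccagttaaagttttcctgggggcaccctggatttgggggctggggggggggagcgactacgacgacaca
The core occurs once in the Dusp6 window, 133 bases before the start, and 3 times in this Etv5 window, 242, 198 and 129 bases before the start. It occurs in 10.9% of all 32851 windows, and 3 or more times in 0.131%. The core was added to the search after these windows had been read. A second Etv5 start in RefSeq has no copy in its window, and the longer forms TGAATGAA and TGAATGGA, which contain the core and occur in 1.08% and 1.01% of all windows, are in neither gene's windows. Of the 10 genes, 5 had a window (Fgf4, Fgfr2, Dusp6, Spry2 and Etv5). Both strands of these windows held 0 copies of the ETS motif CCGGAAG (in 6.91% of all windows), the AP-1 motif TGACTCA (4.46%), the CRE motif TGACGTCA (1.55%), the TATA motif TATAAA (12.4%) and the CArG box of serum response factor (1.47%). Of the 11507 compared genes with a window, 14.6% hold the ETS motif, 3.83% AP-1, 2.95% CRE, 7.94% TATAAA and 1.43% the CArG box. The CIC core is held by 8.73% of them. Matches are descriptions of letters, and which start these cells use is not known from the table.

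Spry2 and Spry4, whose products are inhibitors of receptor tyrosine kinase signalling, were not called. Spry2 had a mean normalized count of 2187 and a log2 fold change of -0.21 ± 0.11 (SE) per the authors' deposited table (adjusted p-value 0.149), and its 95% interval ran from -0.42 to 0.01. Spry4 had a mean normalized count of 2927 and a log2 fold change of -0.18 ± 0.14 (SE) per the authors' deposited table (adjusted p-value 0.362), with a 95% interval of -0.46 to 0.10. Both intervals exclude a change as large as that of Dusp6 but do not show that the Sprouty transcripts were equal between groups. Subtracting the median of the ribosomal protein genes (0.093) from every fold change gave Spry2 a call at -0.30. Spry1, the third family member with a row, was called at -0.59 ± 0.16 (SE) per the authors' deposited table (adjusted p-value 0.00138). Its 95% interval, -0.90 to -0.27, overlaps those of Spry2 and Spry4, and differences within the family were not tested.

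Among all 25 feedback and negative regulators with a row, 13 were called negative, 1 positive and 11 not per the authors' deposited table (52% negative and 4% positive, beside 15.9% and 14.6% of all genes), and the median log2 fold change was -0.44. Of 10 Dusp genes with a row, 7 were called negative and 1 positive per the authors' deposited table. Besides Dusp4 and Dusp6, the larger values were those of Dusp10 at -2.06 (SE 0.46), Dusp1 at -1.37 (SE 0.19) and Dusp5 at -1.34 (SE 0.21) per the authors' deposited table. Dusp10 and Dusp1 encode phosphatases that act on the stress kinases JNK and p38. Dusp9, an ERK phosphatase gene highly expressed in naive stem cells, was the positive call, at 0.27 ± 0.086 (SE) per the authors' deposited table (adjusted p-value 0.00684). Pea15a, which encodes a protein that holds ERK in the cytoplasm, stood at -1.49 (SE 0.18), and Spred1, a RAF inhibitor gene, at -0.73 (SE 0.14) per the authors' deposited table. Spred2 at 0.05 (SE 0.092) and Il17rd, encoding the membrane antagonist SEF, at -0.14 (SE 0.13) were not called per the authors' deposited table. The sign of Spred2 turned to -0.05 with fold changes centred on the ribosomal protein genes. Dusp9 lost its call at 0.18 with the same centring.

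The ETS factor genes Etv4 and Etv5, close relatives that FGF signalling induces, had values at or above 0. Etv5 had a mean normalized count of 17716, the highest of the 10 genes, and a log2 fold change of 0.47 ± 0.097 (SE) per the authors' deposited table (adjusted p-value 1.13e-05). This is a 1.39-fold difference (95% interval 1.21 to 1.58) to the positive side. Etv4 had a mean normalized count of 2520 and a log2 fold change of 0.09 ± 0.20 (SE) per the authors' deposited table (adjusted p-value 0.805). Its 95% interval, -0.31 to 0.48, includes the value of Etv5, and its sign turned to -0.01 with fold changes centred on the ribosomal protein genes. Etv1, the third gene of the subfamily, was at -0.40 ± 0.22 (SE) per the authors' deposited table (adjusted p-value 0.163). Per kilobase of exon, the mean normalized count was 4318 for Etv5, 812 for Etv4 and 82.8 for Etv1.

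Of the 15 ETS and other nuclear effector genes, all with a row, 3 were called positive, 2 negative and 10 not per the authors' deposited table (20% and 13.3%, near the 14.6% and 15.9% of all genes), and the median log2 fold change was 0.15. Erf, encoding an ETS repressor that ERK exports from the nucleus, was at 0.51 (SE 0.14) and Gabpa at 0.26 (SE 0.083) on the positive side per the authors' deposited table. Ets1 was at -2.95 (SE 0.45, mean count 51.8) and Elk4, a partner of serum response factor, at -0.35 (SE 0.13) on the negative side per the authors' deposited table. Cic, encoding Capicua, was not called, at 0.18 ± 0.10 (SE) per the authors' deposited table (adjusted p-value 0.194). Gabpa lost its call with the ribosomal centring, at 0.17, and Elk4 at an adjusted p-value of 0.01.

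Egr1, a zinc-finger gene transcribed within minutes of ERK activation, had the least precise value of the 10. Its mean normalized count was 3284 and its log2 fold change -1.53 ± 0.54 (SE) per the authors' deposited table (adjusted p-value 0.0174). The linear difference was 2.89-fold, with a 95% interval as wide as 1.39 to 5.98. Among the 1905 genes with a mean count within 1.5-fold of its own, 99.8% had a smaller standard error than Egr1, and their median was 0.11 per the authors' deposited table. Which libraries differ cannot be seen without values per sample. At an adjusted p-value of 0.01, Egr1 was no longer called. Among the 10 genes, Etv4 and Dusp4 also had standard errors above those of 97.8% and 94.0% of genes of like abundance per the authors' deposited table, and Fgfr1 had one above only 37.3%.

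**Figure D2:**
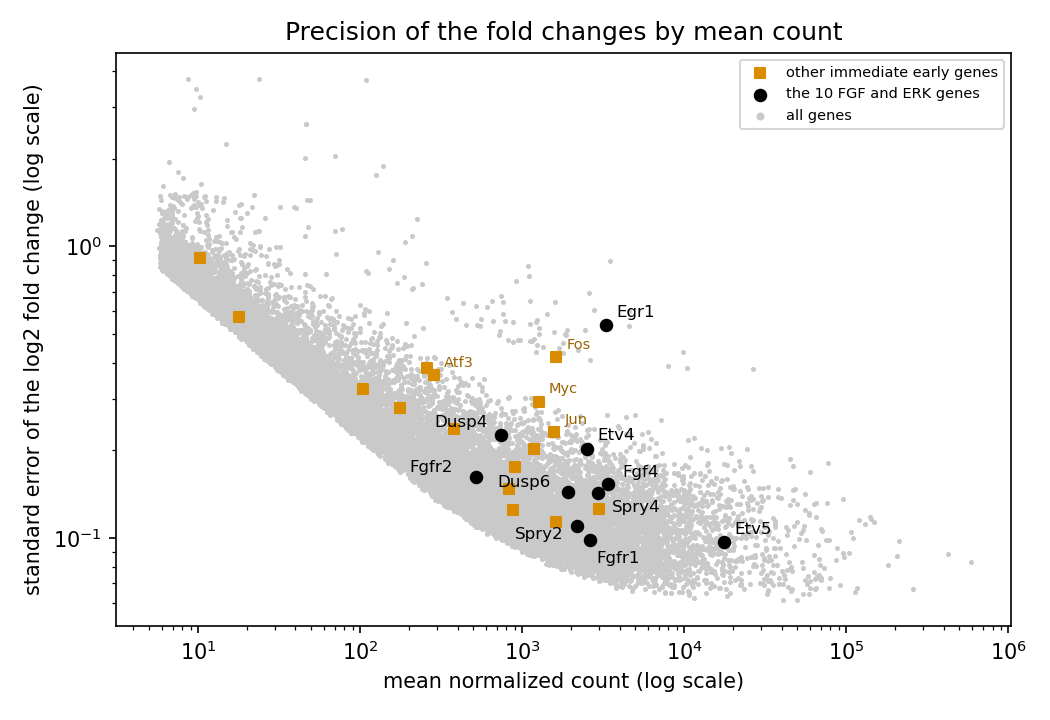
Standard error of the log2 fold change (y axis, log scale) against mean normalized count (x axis, log scale) for all genes (grey), the 10 FGF and ERK genes (black circles) and the other immediate early genes (orange squares). Egr1, with 0.54 at a mean count of 3284, and Fos, with 0.42 at 1618, lie above nearly all genes of their abundance, while Fgfr1, Spry2 and Etv5 lie within the band.

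The immediate early genes were mostly on the negative side with Egr1. Of 19 listed, 17 had a row, and 14 of these were called negative and 0 positive per the authors' deposited table, beside 15.9% and 14.6% of all genes. Their median log2 fold change was -1.53 per the authors' deposited table. The AP-1 genes led them, with Jun at -3.03 (SE 0.23), Fosb at -2.97 (SE 0.20) and Fos at -2.57 (SE 0.42) per the authors' deposited table. Egr2, the relative of Egr1, was at -1.68 ± 0.57 (SE) on a mean count of 17.8 per the authors' deposited table. The 3 genes not called were Myc at -0.12 (SE 0.29), Ier2 at -0.05 (SE 0.11) and Nr4a1 at 0.03 (SE 0.15) per the authors' deposited table. Standard errors were high for their abundance in Fos and Myc as well, above those of 99.0% and 98.7% of like genes per the authors' deposited table. As background, many genes of this list respond to stress kinases as well as to ERK.

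**Figure D3:**
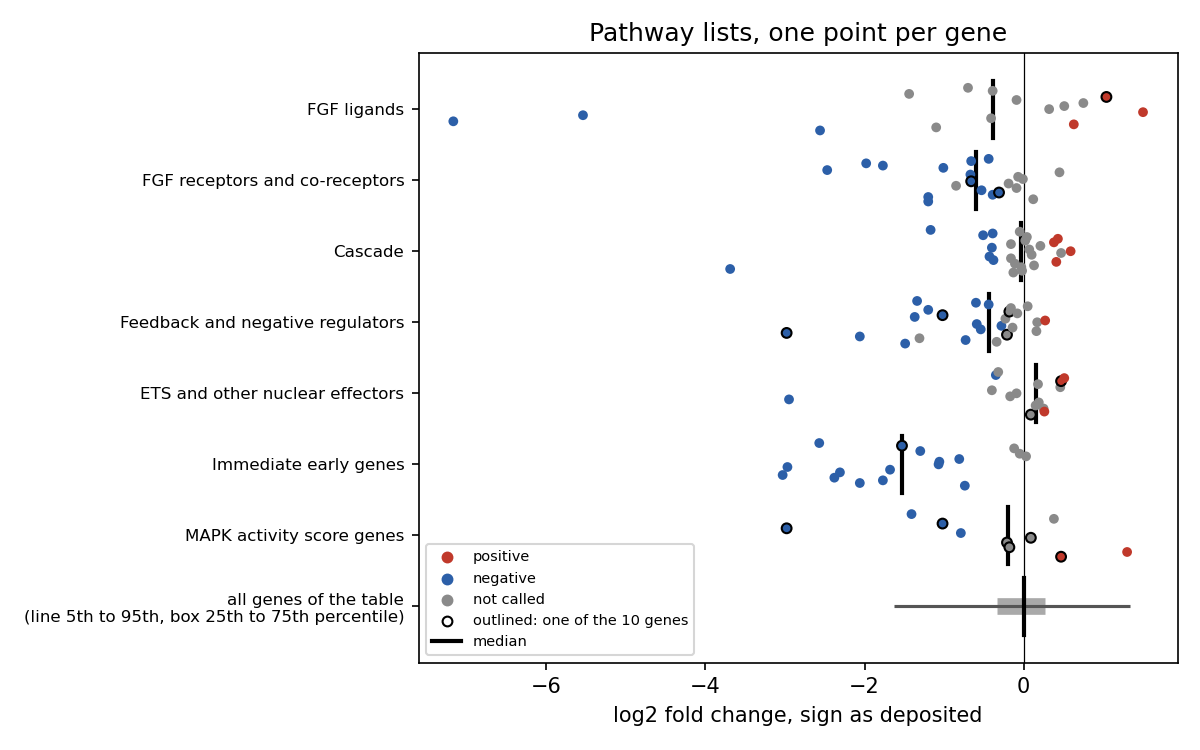
Log2 fold change (x axis, sign as deposited) of each gene with a row in the 7 pathway lists (y axis, 1 point per gene, vertical spread only for visibility), coloured by call at an adjusted p-value under 0.05, with black bars at the medians; the lowest line summarises all genes. Immediate early genes centre on -1.53 and receptors and co-receptors on -0.60, while cascade genes centre on -0.03.

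A published score of ERK output in tumours, built from 10 transcripts, shares 6 genes with those studied here, namely Dusp4, Dusp6, Spry2, Spry4, Etv4 and Etv5. Its 10 genes were divided per the authors' deposited table, with 4 called negative, 2 positive and 4 not (40% and 20%, beside 15.9% and 14.6% of all genes), around a median log2 fold change of -0.20. The other 4 were Phlda1 at -1.41 (SE 0.39), Epha2 at -0.79 (SE 0.17), Ccnd1 at 0.38 (SE 0.23, not called) and Epha4 at 1.30 (SE 0.11) per the authors' deposited table. Klf2, a naive pluripotency factor that ERK targets for degradation as a protein, was at 0.67 ± 0.14 (SE) per the authors' deposited table (adjusted p-value 1.57e-05).

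Over all 121 pathway genes with a row, the 10 genes included, 54 were called negative and 12 positive per the authors' deposited table (44.6% and 9.92%, beside 15.9% and 14.6% of all genes), and the median log2 fold change was -0.34. Among the other 111 genes, the counts were 49 and 10. Markers of some other cell states moved with these lists. Called negative in the authors' deposited table were 6 of 6 formative or primed epiblast markers with a row. They ran from Fgf5 at -7.17 to Otx2 at -0.56 and Dnmt3b at -0.40 (adjusted p-values 0.0476 and 0.039 for Otx2 and Dnmt3b). Also called negative were 5 of 7 trophectoderm markers with a row, with Krt8 at -4.39 and Cdx2 at -5.82. Those not called were Tfap2c at -0.61 and Gata3, on a mean count of only 13.7. Of 6 fibroblast markers with a row, 5 were called negative, with Tagln at -5.96, and 3 others listed had no row. Among these 5, Col1a2 and Col1a1 had mean counts of only 10.1 and 20.9. Thy1 was not called, at 0.34 (SE 0.43). Of 5 primitive endoderm markers with a row, 1 was called negative (Dab2 at -2.18), or 20%, near the 15.9% of all genes. The other 4 were not called, with mean counts of only 9.05 to 14.7 and SEs of 0.71 to 0.81. By sign alone, 7 of 7 trophectoderm and 4 of 5 primitive endoderm markers were negative per the authors' deposited table, beside 8387 of all 17110 genes. Called positive were 6 of 8 embryonic stem cell markers, and 8 of 8 had a positive sign, such as Tbx3 at 2.39 and Zfp42 at 1.10 per the authors' deposited table. Levels of these markers per group were not analysed here, and their part in the values of the FGF and ERK genes was not tested. In bulk samples, fewer cells of a type and less RNA per cell cannot be told apart.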

How the data were processed

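Polyadenylated RNA of 6 sorted samples was sequenced as paired ends. The submitters' processing notes name FastQC 0.12.1, Trimmomatic 0.39, STAR 2.7.11b, RSEM 1.3.3, DESeq2 1.45.3 and the build GRCm39, without their order. The annotation, strand setting and model formula are not given in the sources used here, so genes with overlapping or antisense neighbours carry uncertain values. The mean normalized count is a signal that the authors averaged over libraries. Fold changes and standard errors were deposited by the authors on a log2 scale, and the statistic is a score deposited by the authors that equals the fold change over its standard error within 5.77e-07. The p-value and adjusted p-value are those the authors deposited from DESeq2. A count table of 6 columns was read for its gene IDs only, since the 6 column names match no sample. No test was therefore refitted, and precision rests on the authors' standard errors. These come from a model whose formula is not given, with 3 samples per group by the labels.

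Intervals of 95% were computed as 1.96 standard errors (Python 3.11.15, pandas 2.3.3, scipy 1.17.1). Exon lengths came from GENCODE M21 by gene ID for 16795 genes, and promoter windows from RefSeq by symbol. Centring and adjustment were tested on simulated data. The members and the 7 pathway lists were chosen with earlier results of these data known. Named genes are the 10 members, 19 preset pathway genes and, per list, up to 3 called genes of a mean count of at least 10 in each direction with the largest fold changes. Other list and marker genes named were chosen after their values were seen. Some genes that this rule names are not reported here.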

Additional observations from a re-analysis of the deposited data

How the results depend on the processing

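The alternatives were an adjusted p-value under 0.01, 2 limits on the fold change, an adjustment recomputed over the table, a floor of 50 on the mean count and centring on all genes or on 76 ribosomal protein genes. Among the 10 members, 62 values kept direction and call, and 6 lost a call. These were Egr1 at an adjusted p-value of 0.01, Etv5 and Fgfr1 under both fold limits, and Fgfr2 under the limit of 1. Spry2 gained a call (-0.30) and Etv4 turned to -0.01 on ribosomal centring, where Spred2 also turned to -0.05. For the members, an absolute log2 fold change over 0.5 or over 1 left 1 positive call of 2, and over 1 left 3 negative calls of 5.

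In the lists, the limit of 0.5 left 1 positive and 3 negative cascade calls, 0 positive feedback calls, 1 positive and 1 negative ETS call, and 1 positive activity score call. The limit of 1 left 6 negative receptor calls, 0 positive and 2 negative cascade calls, 0 positive and 7 negative feedback calls, 0 positive and 1 negative ETS call, and 1 positive activity score call, as a stricter limit must. At an adjusted p-value of 0.01, 1 negative ETS call remained. With ribosomal centring, negative ligand calls went from 3 to 5 and positive feedback calls from 1 to 0. The other 92 list and member counts stayed within 1.5 times.

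No paired analysis was possible because no count column matched a sample. For the same reason edgeR, a new DESeq2 fit and the fits without each replicate were not run, and whether 1 library decides a value is not answered.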

Other observations

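Receptor tyrosine kinases of other families were looked at with lists chosen after the FGF values had been seen. Whether each of them feeds the ERK cascade in these cells was not tested. Of 29 such receptor genes with a row, 14 were called negative and 4 positive per the authors' deposited table (48.3% and 13.8%, beside 15.9% and 14.6% of all genes), and the median log2 fold change was -0.60. Epha1 stood at -2.59 (standard error, SE, 0.20), Egfr at -1.44 (SE 0.23) and Igf1r at -1.05 (SE 0.15), while the ephrin receptor gene Epha4 and the angiopoietin receptor gene Tek both stood at 1.30 per the authors' deposited table. Among 19 ligand genes of these families, 7 were called negative and 2 positive per the authors' deposited table (36.8% and 10.5%), with Igf2 at -3.58 (SE 0.45) and Pdgfc at 1.44 (SE 0.20). Of 24 genes of the JNK and p38 branches, 12 were called negative and 4 positive per the authors' deposited table (50% and 16.7%), the positive share lying near that of all genes. The stress-induced Gadd45b was at -1.53 (SE 0.17) and its relative Gadd45g at 0.68 (SE 0.22) per the authors' deposited table, so members of that family also lay on opposite sides.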
